A study of Mus musculus with 8 samples.

Results

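The 35 genes described here act in mitosis or in the passage from G2 into mitosis. They were taken by symbol from the table of 18990 genes, and all 35 had a row and passed the filter of a mean of at least 1 CPM (counts scaled to library size), as did 13866 genes in all. The RNA-seq profiles came from primary wild-type mouse embryonic fibroblasts (MEFs) of the BL6 strain, which carried the doxycycline-inducible tet-STEMCCA cassette for Oct4, Sox2, Klf4 and c-Myc (OSKM) and rtTA, each delivered by lentivirus. The cells were transfected with siRNA pools at 40 nM against *Ncor1*, a transcriptional corepressor, or *Oct4*, then replated in doxycycline medium with a GSK3 inhibitor (chiron), an Alk5 inhibitor, ascorbic acid and LIF, and RNA was collected at day 3 or day 6. Each of the 4 groups (siNcor1 and siOct4, each at day 3 and day 6) held 2 biological replicates (R1 and R2). Libraries of the control siRNA were not analysed here, and every value therefore sets 1 knockdown against the other or 1 day against the other. The whole culture was sampled, and cells that had not begun to reprogram were part of it.

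Cells enter mitosis when cyclin B binds CDK1 and the complex is activated, with Polo-like and Aurora kinases driving centrosome maturation and spindle assembly. Kinetochores built on centromeric chromatin attach chromosomes to the spindle, and the spindle assembly checkpoint holds back CDC20, the activator of the anaphase-promoting complex (APC/C), until attachment is complete. The central spindle and the contractile ring then divide the cell. Most of these genes are transcribed in late S and G2 phase and silenced in G1 phase, so their summed RNA is commonly used as a readout of how many cells in a culture are cycling. In bulk RNA, fewer cells in G2 or mitosis and less RNA per such cell cannot be told apart, and neither cell number nor cell cycle phase was measured in these libraries.

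The libraries held 7735742 to 16445192 reads on genes. The 35 genes were covered by 90 to 8228 reads each in every library. *Ncor1* was at 7.08 and 7.20 log2-cpm in siNcor1 and at 7.82 and 7.94 in siOct4 at day 3, a level 1.67-fold higher in siOct4 (adjusted p = 0.0139). At day 6 it was at 7.26 and 7.28 in siNcor1 and at 7.33 and 7.13 in siOct4 (adjusted p = 0.815). *Pou5f1*, the gene for Oct4, was at 7.63 and 7.68 in siNcor1 and at 7.53 and 7.62 in siOct4 at day 3 (adjusted p = 0.941). At day 6 *Pou5f1* was 3.42-fold higher in siOct4 (adjusted p = 0.000109), and *Sox2*, *Klf4* and *Myc*, the other genes of the cassette, were 3.10-, 3.19- and 3.01-fold higher. *Ncor1* was thus lower in siNcor1 at day 3 and did not pass at day 6, and *Pou5f1* was not lower in siOct4 at either day. *Pou5f1* was set only against siNcor1 and not against a control, so its values do not settle whether it was knocked down. The libraries are therefore called the libraries labelled siOct4, and knockdown is used below as the name of the siRNA given, not of a measured level. The cassette and the chromosomal copies of these genes were not separated in the table.

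The summed levels of marker genes of other states moved with the groups. Fibroblast markers (8 of 8 passed the filter) summed to 7353 to 7773 CPM in siNcor1 and 10155 to 11530 CPM in the libraries labelled siOct4 at day 3, and to 4944 to 5006 and 2733 to 2785 CPM at day 6. Epithelial markers (5 of 5) summed to 53.3 to 55.0 and 15.4 to 17.3 CPM at day 3, and to 639 to 673 and 270 to 298 CPM at day 6, in the same order. Of the pluripotency markers 5 of 6 passed the filter, *Zfp42* did not, and all 6 are in the sums. They summed to 7.60 to 7.61 and 1.42 to 3.67 CPM at day 3, and to 87.7 to 90.2 and 38.5 to 45.1 CPM at day 6. Neural markers (3 of 3 with a row passed) summed to 56.7 to 72.0 CPM in siNcor1 and 87.1 to 88.3 CPM with the siOct4 label at day 3. At day 6 their sums were 42.9 to 46.1 and 109 to 125 CPM, so this set was higher with that label at both days. Macrophage, endothelial and skeletal muscle sums were at most 12.8, 44.3 and 85.2 CPM in any library. *Col1a1* alone gave 3812 and 3617 CPM of the fibroblast sums in siNcor1 at day 3. By gene, 3 of the 8 fibroblast markers rose between the days in siNcor1 and 2 fell (median log2 fold change 0.07). With the siOct4 label, 0 rose and 5 fell. Between the knockdowns, 0 of the 8 passed at day 3, where 7 had values above siNcor1. At day 6, 7 passed, each below siNcor1. Of all genes tested, 13.8% rose and 20.9% fell between the days in siNcor1, and 22.2% and 30.5% with the siOct4 label. Between the knockdowns 1.07% of all genes tested passed at day 3, and 18.6% were lower with that label at day 6. The gene model *Gm26917* took 15.5 to 16.6% of reads at day 3, 20.3 to 21.7% in siNcor1 at day 6 and 23.9 to 29.1% in the libraries labelled siOct4 at day 6. The part of these cell states in the mitotic values below was not tested. With library totals taken without *Gm26917*, the counts of mitotic genes past the threshold stayed within 4 of the values given below in every comparison.

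Promoters of G2/M genes often carry a CHR element (TTTGAA, or the variant TTTAAA), which binds MuvB complexes, and CCAAT boxes, which bind NF-Y. RefSeq promoters (GRCm38.p6, 250 bases before to 50 bases after the start) were matched for 28 of the 35 genes. Promoters of *Incenp*, *Ccna2*, *Aurkb*, *Kif20a*, *Tpx2*, *Cdc25c* and *Foxm1* are named only. TTTGAA, searched on both strands, was found in 20 of 28 promoters (71.4%), and in 11.5% of the promoters of 10121 genes that passed the filter here. TTTAAA, which reads the same on both strands, was found in 9 of 28 (32.1%) against 8.94%. CCAAT, on either strand and within 100 bases before the start, was found in 19 of 28 (67.9%) against 23.6%. No match of 1 motif overlapped a match of another in these promoters. A match is a description of the letters in the window and not a binding site. The 150 bases before the start are printed below for 6 genes that stand for the patterns described later, with the 3 motifs in capitals on either strand. *Mki67* and *Top2a* fell in both knockdowns, *Cdc20* fell in siNcor1 and did not pass in the libraries labelled siOct4, *Cdk1* and *Ube2c* rose between the days in the latter, and *Ccnb1* passed no test.
Mki67, chr7:135716380-135716529, minus strand: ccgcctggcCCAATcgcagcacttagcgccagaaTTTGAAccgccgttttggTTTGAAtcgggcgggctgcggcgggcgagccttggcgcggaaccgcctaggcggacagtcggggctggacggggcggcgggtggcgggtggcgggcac
Top2a, chr11:99024190-99024339, minus strand: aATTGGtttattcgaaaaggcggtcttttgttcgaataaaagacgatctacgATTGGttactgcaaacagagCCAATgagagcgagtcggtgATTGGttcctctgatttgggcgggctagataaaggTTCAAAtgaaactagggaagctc
Cdc20, chr4:118437344-118437493, minus strand: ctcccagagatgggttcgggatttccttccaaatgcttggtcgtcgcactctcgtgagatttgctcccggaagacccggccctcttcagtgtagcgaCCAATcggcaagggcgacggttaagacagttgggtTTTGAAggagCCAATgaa
Cdk1, chr10:69352913-69353062, minus strand: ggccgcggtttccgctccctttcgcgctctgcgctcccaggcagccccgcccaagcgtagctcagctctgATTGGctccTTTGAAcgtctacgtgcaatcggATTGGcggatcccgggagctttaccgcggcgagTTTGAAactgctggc
Ube2c, chr2:164769779-164769928, plus strand: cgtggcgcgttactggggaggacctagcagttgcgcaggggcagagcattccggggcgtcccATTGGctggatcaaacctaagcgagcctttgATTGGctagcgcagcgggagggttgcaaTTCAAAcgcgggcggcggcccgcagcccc
Ccnb1, chr13:100786487-100786636, minus strand: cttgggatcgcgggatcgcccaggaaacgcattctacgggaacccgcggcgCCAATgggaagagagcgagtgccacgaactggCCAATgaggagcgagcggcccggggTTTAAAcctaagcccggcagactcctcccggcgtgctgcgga

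In *Mki67*, the pair of TTTGAA elements lay at -116 to -111 and -98 to -93, counted from the start. *Cdc20* held CCAAT at -53 to -49 and -8 to -4 and TTTGAA at -18 to -13. *Cdk1* held TTTGAA at -71 to -66 and -15 to -10, and the reverse of CCAAT at -80 to -76 and -48 to -44. The TTTGAA of *Ube2c* and *Top2a* was read on the other strand, at -29 to -24 and -23 to -18. *Ccnb1* held TTTAAA at -42 to -37 and no TTTGAA in the window. TTTGAA and CCAAT were thus both held by *Mki67* and *Top2a*, which fell in both knockdowns, and by *Cdk1* and *Ube2c*, which rose in the libraries labelled siOct4.

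All of the members were expressed at day 3. Summed over the 35 genes, the level was 2849 and 3444 CPM in siNcor1 and 2909 and 2848 CPM in the libraries labelled siOct4, and R2 of siNcor1 stood above the other day 3 libraries. At day 6 the sum was 1901 and 1814 CPM in siNcor1 and 2158 and 2557 CPM in the libraries labelled siOct4. All day 6 libraries were thus below all day 3 libraries in this sum, and the siNcor1 libraries were the lowest. The sum is weighted toward the genes with most reads. In the libraries labelled siOct4, *Mki67* alone went from 376 and 425 CPM to 155 and 184 CPM. The median log2 fold change of the 35 genes there was -0.13, beside -0.08 over all genes tested. Past the threshold, 14 genes were lower and 6 higher, beside 30.5% and 22.2% of all genes tested. In either direction 57.1% of the 35 genes passed, close to the 52.7% of all genes tested. Divided by exon length, the mean over the 8 libraries was highest for *Cdc20* (44.6 CPM per kb), *Ube2c* (35.6), *Mki67* (29.2), *Top2a* (28.9) and *Cdk1* (27.8). It was lowest for *Kif18a* (1.89 CPM per kb), *Cdc25c* (2.69) and *Ndc80* (2.93).

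**Figure D1:**
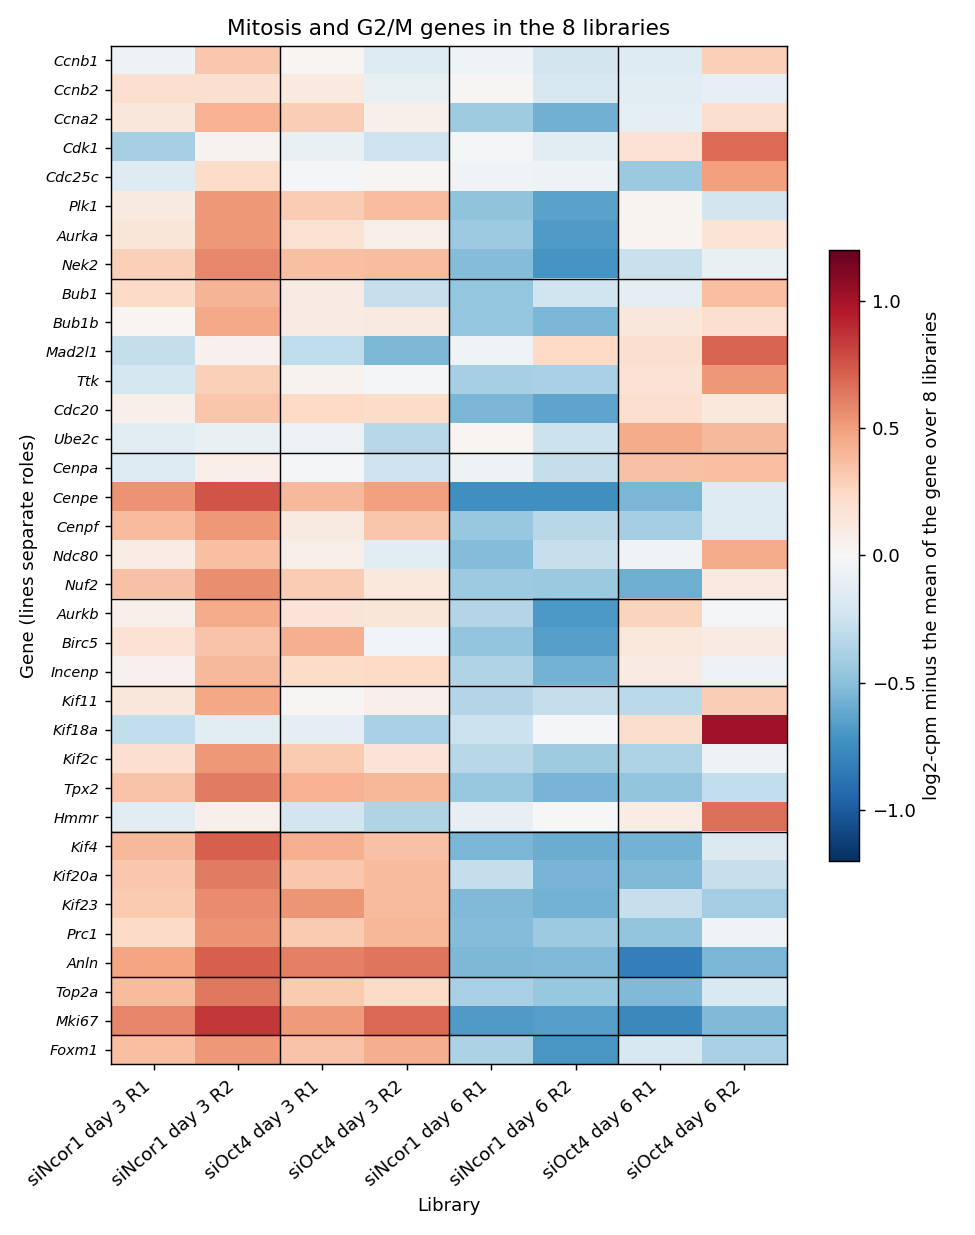
Level of each of the 35 genes (rows, lines separate the roles) in each of the 8 libraries (columns), as log2-cpm minus the mean of the gene over the libraries, red above and blue below the mean. Most rows are red at day 3 and blue in both siNcor1 libraries at day 6, while the 2 day 6 libraries labelled siOct4 hold rows of both colours.

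How far the mitotic programme had moved between day 3 and day 6 was asked within each knockdown. In siNcor1, 25 of the 35 genes fell and 0 rose, while 34.8% of all genes tested passed the threshold and 20.9% fell. The median log2 fold change was -0.78 over the 35 genes and -0.07 over all genes tested. The genes that fell ranged from *Cenpe* (2.62-fold lower) and *Mki67* (2.61-fold lower) to *Ndc80* (1.54-fold lower). The 10 genes that did not pass were *Ccnb1*, *Ccnb2*, *Cdc25c*, *Cdk1*, *Cenpa*, *Hmmr*, *Kif18a*, *Mad2l1*, *Ttk* and *Ube2c*. For 27 of the 35 genes both day 6 values lay below both day 3 values, as they did for 41.7% of all genes tested, and for 0 genes both lay above (31.4% of all genes tested). Without R2 of siNcor1 at day 3, 18 of the 25 genes remained past the threshold, and *Aurkb*, *Bub1*, *Incenp*, *Kif11*, *Kif2c*, *Ndc80* and *Nuf2* did not.

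In the libraries labelled siOct4, 14 genes fell and 6 rose between the days, while 52.7% of all genes tested passed the threshold, 30.5% lower and 22.2% higher. The median log2 fold change was -0.13 over the 35 genes and -0.08 over all genes tested, and it turned to 0.04 with quantile normalization. All 14 genes that fell here also fell in siNcor1: *Anln*, *Cenpe*, *Cenpf*, *Foxm1*, *Kif20a*, *Kif23*, *Kif2c*, *Kif4*, *Mki67*, *Nek2*, *Plk1*, *Prc1*, *Top2a* and *Tpx2*. These make up 40% of the 35 genes, beside 14% of all genes tested that fell in both knockdowns, which share no library. The 6 genes that rose were *Mad2l1*, *Kif18a*, *Hmmr*, *Ube2c*, *Cdk1* and *Cenpa*, and none of them passed the test in siNcor1. They make up 17.1% of the 35 genes, below the 22.2% of all genes tested that rose. A rise here without a call in siNcor1 was seen for 13% of all genes tested. Both day 6 values lay below both day 3 values for 18 of the 35 genes and above them for 8, beside 42.1% and 32.7% of all genes tested. Without R2 at day 3, the shallowest library, 13 of the 20 calls remained, 3 higher and 10 lower, and *Cdk1*, *Cenpa*, *Cenpf*, *Kif18a*, *Kif2c*, *Nek2* and *Plk1* were no longer past the threshold.

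**Figure D2:**
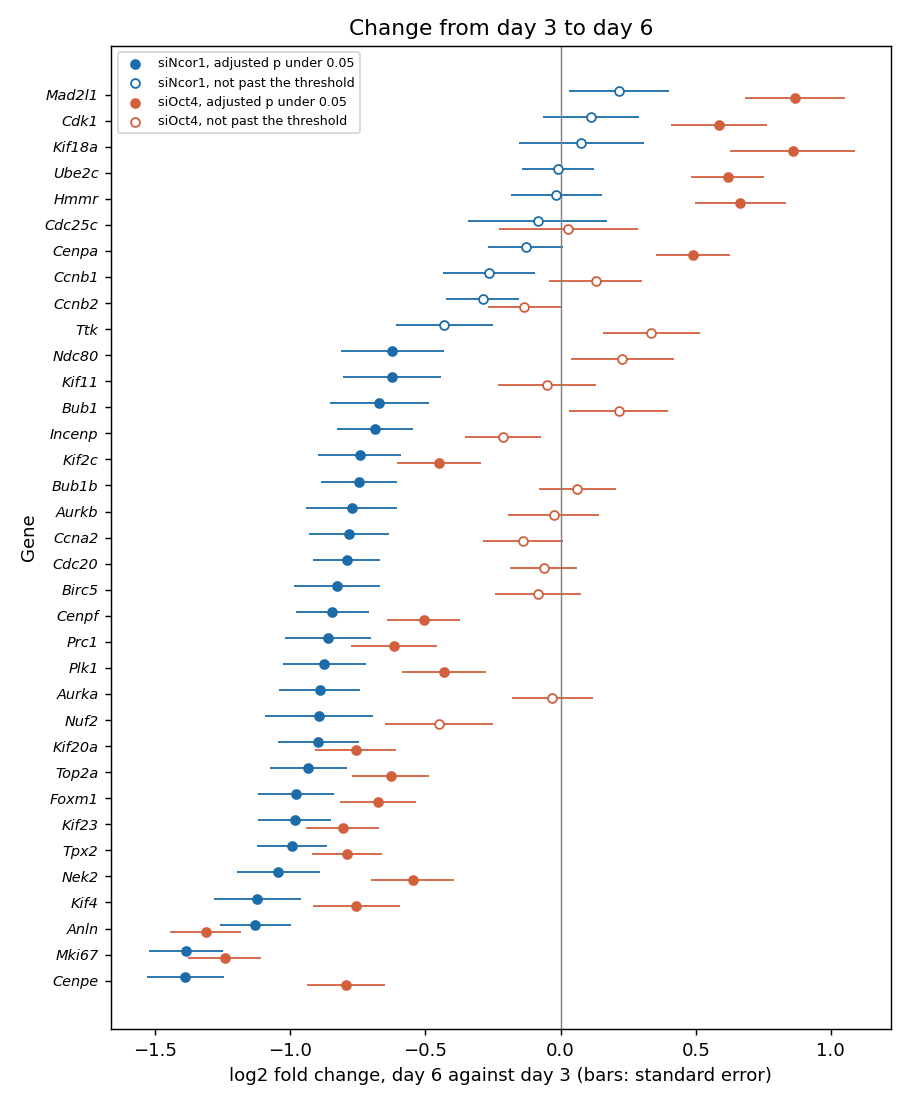
Log2 fold change of each of the 35 genes from day 3 to day 6 (horizontal axis, bars are standard errors from limma) in siNcor1 (blue) and in the libraries labelled siOct4 (orange), filled where the adjusted p is under 0.05. For 34 of the 35 genes the orange point lies to the right of the blue point, and the order of the genes is much the same in both.

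Whether the day change differed between the knockdowns was tested by the interaction. The change was higher in the libraries labelled siOct4 for 10 of the 35 genes and lower for 0, while 20.7% of all genes tested passed and 7.77% were higher. The genes were *Bub1*, *Aurka*, *Ndc80*, *Bub1b*, *Aurkb*, *Birc5*, *Cdc20*, *Ccna2*, *Ube2c* and *Cenpa*, with log2 differences from 0.89 down to 0.62. *Anln* was the 1 gene with a value below 0 (-0.18). The median was 0.47 over the 35 genes and 0.01 over all genes tested. These calls depended on the libraries in the fit. Leaving out 1 library left 1 in its group, and in the fits that lost all 10 calls fewer of all genes tested passed as well. None of the 10 remained without R2 of siNcor1 at day 3, without R2 of siNcor1 at day 6 or without R2 at day 3 of the libraries labelled siOct4, 5 were called without R1 of siNcor1 at day 6, and 17 without R1 at day 6 of the libraries labelled siOct4. The direction of all 10 was kept in each of these fits, and with 1 library left out the median over the 35 genes was 0.34 to 0.65. Across the 35 genes the day changes of both knockdowns went together (Pearson's r = 0.894, Spearman's rho = 0.920 over 35 genes, given as a description), with r = 0.655 over all genes tested. The changes share no library, and genes are not independent replicates.

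At day 3 the knockdowns were compared directly. None of the 35 genes passed the threshold, while 1.07% of all genes tested did, 0.375% higher and 0.692% lower. One gene, *Bub1*, had an unadjusted p under 0.05. The values were lower in the libraries labelled siOct4 for 29 of 35 genes, with a median log2 difference of -0.11 beside -0.02 over all genes tested. Without R2 of siNcor1 the median was 0.03. The most distant genes were *Bub1* (log2 difference -0.41, 95% interval -0.81 to -0.01, adjusted p = 0.458) and *Mad2l1* (-0.30, 95% interval -0.70 to 0.10, adjusted p = 0.666). No gene had both values labelled siOct4 above both siNcor1 values, and 10 had both below, as did 20.7% and 22.7% of all genes tested.

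By day 6, 13 of the 35 genes stood higher in libraries labelled siOct4 and 0 lower, while 30.7% of all genes tested passed and 12.1% were higher. The genes were *Cdc20*, *Kif18a*, *Ttk*, *Birc5*, *Bub1b*, *Aurka*, *Aurkb*, *Ndc80*, *Ccna2*, *Cenpa*, *Ube2c*, *Incenp* and *Plk1*, from 1.69-fold to 1.38-fold higher. The median log2 difference was 0.39 over the 35 genes and -0.03 over all genes tested, and the values were above 0 for 33 genes. *Anln* (-0.16, adjusted p = 0.387) and *Ccnb2* had values below 0. For 19 genes both values labelled siOct4 lay above both siNcor1 values, as they did for 29.9% of all genes tested. Without R2 of siNcor1 at day 6, the call of *Cdc20* alone remained, and without a mean-variance trend 7 of the 13 remained. All 13 kept their direction in each fit, and in both of these fits fewer of all genes tested passed as well.

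**Figure D3:**
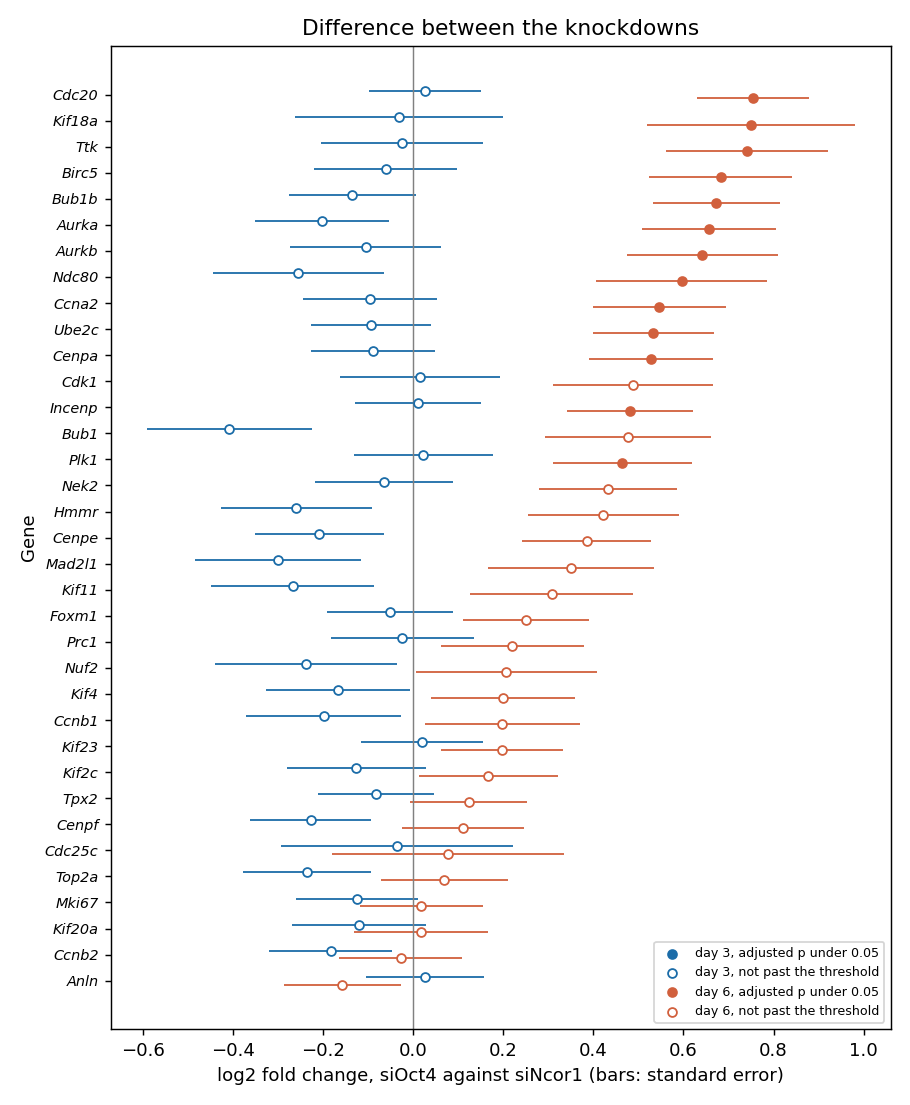
Log2 difference between the libraries labelled siOct4 and siNcor1 for each of the 35 genes (horizontal axis, bars are standard errors from limma) at day 3 (blue) and day 6 (orange), filled where the adjusted p is under 0.05. No blue point is filled, and 13 orange points, all to the right of 0, are.

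**Figure D4:**
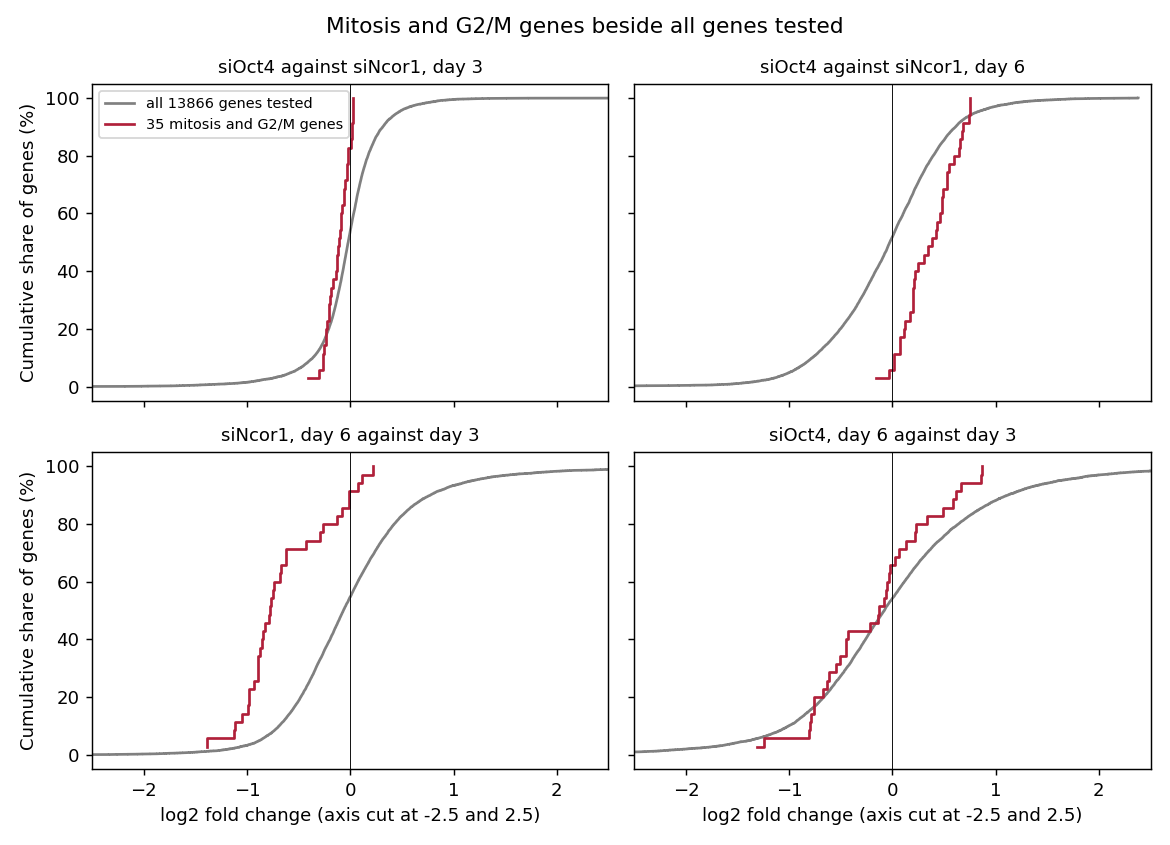
Cumulative share of genes (vertical axis, %) against the log2 fold change (horizontal axis, cut at -2.5 and 2.5) for the 35 mitosis and G2/M genes (red) and all 13866 genes tested (grey), in 4 comparisons. The red curve lies to the left of the grey one for the day change in siNcor1, where its median is -0.78, and to the right of it for the difference at day 6, where its median is 0.39.

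Among the cyclins and kinases of mitotic entry, 4 of 8 fell in siNcor1, and 1 rose and 2 fell in the libraries labelled siOct4. The shares past the threshold were 50% and 37.5%, beside 34.8% and 52.7% of all genes tested, so the second was below that of all genes. *Ccnb1*, cyclin B1, was at 5.90 and 6.29 log2-cpm in siNcor1 at day 3 and 5.91 and 5.75 at day 6, and in the libraries labelled siOct4 at 5.99 and 5.80 at day 3 and 5.80 and 6.25 at day 6. The groups overlapped in every comparison, and the day 6 to day 3 difference in siNcor1 had a 95% interval of -0.64 to 0.11. *Cdk1*, its catalytic partner, was at 6.67 and 7.11 in siNcor1 at day 3 and 7.05 and 6.95 at day 6, and in the libraries labelled siOct4 at 6.98 and 6.82 at day 3 and 7.24 and 7.74 at day 6. *Cdk1* rose 1.50-fold in the latter (adjusted p = 0.0154), and the call was lost without R2 of either day and without the variance trend. At day 6 it was 1.40-fold above siNcor1, which did not pass (adjusted p = 0.0557), with R2 the highest of the 8 libraries. *Plk1*, Polo-like kinase 1, was at 5.81 and 6.22 in siNcor1 at day 3 and 5.22 and 5.06 at day 6, and in the libraries labelled siOct4 at 6.00 and 6.07 at day 3 and 5.74 and 5.48 at day 6. It fell 1.83-fold in siNcor1 (adjusted p = 0.00148) and 1.35-fold in the libraries labelled siOct4 (adjusted p = 0.0337). The second call was lost with the libraries centred on the median, quantile normalization, totals without *Gm26917* or no variance trend. It was also lost without R1 or R2 at day 3 or R2 at day 6. *Aurka*, Aurora A, was at 5.90 and 6.27 in siNcor1 at day 3 and 5.32 and 5.07 at day 6, and in the libraries labelled siOct4 at 5.94 and 5.83 at day 3 and 5.79 and 5.92 at day 6. *Aurka* fell 1.85-fold in siNcor1, while its day 6 and day 3 values overlapped in the libraries labelled siOct4. *Nek2*, a centrosome kinase, fell in both, and *Ccna2*, cyclin A2, fell 1.72-fold in siNcor1. *Ccnb2* and *Cdc25c*, the phosphatase that activates CDK1, passed no test, and *Cdc25c* had the widest gap between replicates, 3.27 and 4.21, among the day 6 libraries labelled siOct4.

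Of the checkpoint and APC/C genes, 3 of 6 fell in siNcor1, 2 rose in the libraries labelled siOct4, and 4 were higher at day 6 in the latter. These shares were 50%, 33.3% and 66.7%, beside 34.8%, 52.7% and 30.7% of all genes tested that passed, so the second was below that of all genes. *Cdc20* was at 6.41 and 6.68 in siNcor1 at day 3 and 5.79 and 5.71 at day 6, and in the libraries labelled siOct4 at 6.58 and 6.56 at day 3 and 6.54 and 6.47 at day 6. Its day 6 siNcor1 values were the lowest of the 8 libraries and the other 6 lay between 6.41 and 6.68. *Cdc20* fell 1.73-fold in siNcor1 (adjusted p = 0.000734), and at day 6 it was 1.69-fold higher in the libraries labelled siOct4 (log2 difference 0.75 with a standard error of 0.12, adjusted p = 0.00149). *Bub1*, a checkpoint kinase, was at 5.41 and 5.59 in siNcor1 at day 3 and 4.71 and 4.95 at day 6, and in the libraries labelled siOct4 at 5.28 and 4.90 at day 3 and 5.07 and 5.55 at day 6. It fell 1.59-fold in siNcor1 (adjusted p = 0.0147) and had the highest interaction (0.89, standard error 0.26, adjusted p = 0.033), but the day 6 difference did not pass (0.48, adjusted p = 0.0684). *Bub1b*, its paralogue BubR1, fell 1.68-fold in siNcor1 and was 1.59-fold higher at day 6 in the libraries labelled siOct4. *Ttk*, the checkpoint kinase MPS1, was at 4.40 and 4.90 in siNcor1 at day 3 and 4.22 and 4.23 at day 6, and in the libraries labelled siOct4 at 4.66 and 4.60 at day 3 and 4.79 and 5.14 at day 6. The day 6 groups did not overlap, and 29.9% of all genes tested were likewise higher without overlap. *Ttk* was 1.67-fold higher in the libraries labelled siOct4 (adjusted p = 0.0101), a call lost without R2 of siNcor1 at day 6. *Mad2l1*, which sequesters CDC20, was at 5.64 and 5.98 in siNcor1 at day 3 and 5.88 and 6.18 at day 6, and in the libraries labelled siOct4 at 5.63 and 5.39 at day 3 and 6.12 and 6.63 at day 6. It rose 1.83-fold in the libraries labelled siOct4 (adjusted p = 0.00198). *Ube2c*, the ubiquitin-conjugating enzyme of the APC/C, rose 1.53-fold there and was 1.45-fold above siNcor1 at day 6.

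Centromere and kinetochore genes took both courses. *Cenpe*, a kinetochore motor, was at 7.11 and 7.33 in siNcor1 at day 3 and 5.83 in both libraries at day 6, and in the libraries labelled siOct4 at 6.96 and 7.06 at day 3 and 6.02 and 6.41 at day 6. The days did not overlap in either knockdown. *Cenpe* fell 2.62-fold in siNcor1 (log2 -1.39 with a standard error of 0.14, adjusted p = 5.67e-05) and 1.73-fold in the libraries labelled siOct4 (adjusted p = 0.000691), and the interaction was just short of the threshold (adjusted p = 0.058). *Ndc80*, which binds microtubules together with *Nuf2*, was at 4.32 and 4.59 in siNcor1 at day 3 and 3.71 and 3.96 at day 6, and in the libraries labelled siOct4 at 4.30 and 4.11 at day 3 and 4.19 and 4.67 at day 6. *Ndc80* fell 1.54-fold in siNcor1 and was 1.51-fold higher at day 6 in the libraries labelled siOct4, and *Nuf2* fell 1.86-fold in siNcor1. *Cenpf* fell in both. *Cenpa*, the centromeric histone H3 variant, rose 1.40-fold in the libraries labelled siOct4, did not pass in siNcor1, and was 1.44-fold higher at day 6.

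All 3 genes of the chromosomal passenger complex, which corrects attachment errors and guides cytokinesis, fell in siNcor1, did not pass in the libraries labelled siOct4, and were higher there at day 6. Of all genes tested, 20.9% fell in siNcor1, 52.7% passed in the libraries labelled siOct4, and 12.1% were higher there at day 6. *Aurkb*, the Aurora B kinase of the complex, was at 5.38 and 5.76 in siNcor1 at day 3 and 4.96 and 4.63 at day 6, and in the libraries labelled siOct4 at 5.47 and 5.46 at day 3 and 5.59 and 5.29 at day 6. The day 6 difference was 1.56-fold (adjusted p = 0.0141). *Birc5*, survivin, differed 1.60-fold and *Incenp*, the scaffold, 1.40-fold. Without R2 of siNcor1 at day 6, none of these 3 differences was past the threshold.

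Spindle motors and microtubule factors split by gene. *Kif11*, the motor that keeps spindle poles apart, was at 6.49 and 6.82 in siNcor1 at day 3 and 6.00 and 6.06 at day 6, and in the libraries labelled siOct4 at 6.36 and 6.41 at day 3 and 6.03 and 6.65 at day 6. *Kif11* fell 1.54-fold in siNcor1 (adjusted p = 0.019), while R1 and R2 of the last group lay on either side of the day 3 values. *Kif18a*, which limits chromosome oscillation, was at 3.86 and 4.01 in siNcor1 at day 3 and 3.90 and 4.13 at day 6, and in the libraries labelled siOct4 at 4.05 and 3.76 at day 3 and 4.36 and 5.16 at day 6. R2 of the last group was well above all the others. *Kif18a* rose 1.81-fold there (adjusted p = 0.00822) and was 1.68-fold above siNcor1 at day 6 (adjusted p = 0.0296), and both calls were lost without that library. The rise was also lost without R2 at day 3, and the day 6 difference without any 1 of the 4 siNcor1 libraries. The call at day 6 was lost as well with totals without normalization factors, no variance trend or only the groups compared. *Hmmr*, a spindle protein that also binds hyaluronan, was at 6.15 and 6.33 in siNcor1 at day 3 and 6.18 and 6.27 at day 6, and in the libraries labelled siOct4 at 6.05 and 5.92 at day 3 and 6.36 and 6.93 at day 6. It rose 1.59-fold in the latter (adjusted p = 0.00565). *Kif2c*, a microtubule depolymerase, and *Tpx2*, an activator of Aurora A, fell in both knockdowns. The call of *Kif2c* in the libraries labelled siOct4 was kept in 13 of the 20 alternatives.

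All 5 genes of the central spindle and cytokinesis fell in both knockdowns, and none of the 5 differed between the knockdowns at either day past the threshold. Of all genes tested, 14% fell in both knockdowns, and 1.07% and 30.7% differed at day 3 and day 6. *Anln*, anillin, a scaffold of the contractile ring, was at 7.32 and 7.57 in siNcor1 at day 3 and 6.31 and 6.32 at day 6, and in the libraries labelled siOct4 at 7.45 and 7.48 at day 3 and 6.02 and 6.29 at day 6. It fell 2.19-fold in siNcor1 (adjusted p = 0.000111) and 2.48-fold in the libraries labelled siOct4 (adjusted p = 1.07e-05), the lowest value of the 35 in the latter. *Kif23*, a motor of the centralspindlin complex, was at 5.63 and 5.89 in siNcor1 at day 3 and 4.80 and 4.76 at day 6, and in the libraries labelled siOct4 at 5.86 and 5.70 at day 3 and 5.04 and 4.91 at day 6. The fall was 1.98-fold and 1.75-fold, with no overlap between the days, while 41.7% and 42.1% of all genes tested were lower without overlap. *Kif4*, a chromokinesin, *Kif20a*, a motor needed for cytokinesis, and *Prc1*, which bundles antiparallel microtubules, fell 2.18-, 1.86- and 1.81-fold in siNcor1 and 1.69-, 1.69- and 1.53-fold in the libraries labelled siOct4.

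*Mki67*, which encodes the proliferation marker Ki-67, was at 8.64 and 8.90 in siNcor1 at day 3 and 7.37 and 7.39 at day 6, and in the libraries labelled siOct4 at 8.56 and 8.73 at day 3 and 7.28 and 7.52 at day 6. The fall was 2.61-fold (adjusted p = 4.44e-05) and 2.37-fold (adjusted p = 2.12e-05), and at day 6 the knockdowns differed by 0.02 on the log2 scale with a 95% interval of -0.28 to 0.32. *Top2a*, the topoisomerase that untangles sister chromatids, was at 8.35 and 8.60 in siNcor1 at day 3 and 7.58 and 7.51 at day 6, and in the libraries labelled siOct4 at 8.28 and 8.20 at day 3 and 7.44 and 7.78 at day 6. It fell 1.91-fold and 1.55-fold. *Foxm1*, a transcription factor that activates many G2/M genes, was at 6.36 and 6.52 in siNcor1 at day 3 and 5.62 and 5.30 at day 6, and in the libraries labelled siOct4 at 6.34 and 6.43 at day 3 and 5.81 and 5.61 at day 6. *Foxm1* fell 1.97-fold (adjusted p = 0.000433) and 1.60-fold (adjusted p = 0.00169). The days did not overlap for any of these 3 genes in either knockdown.

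Counting limits some genes. Pseudogenes named for *Ccnb1*, *Ccnb2* and *Kif4* are annotated, and *Ccna2*, *Cdc20*, *Kif18a*, *Kif20a*, *Kif4*, *Prc1* and *Ube2c* overlap a protein-coding gene on the other strand. *Anln*, *Foxm1*, *Incenp*, *Kif11*, *Ndc80*, *Top2a* and *Tpx2* overlap another annotated gene on their own strand. Since the counting was not given in the sources used here, reads of these pairs cannot be told apart. *Elovl1*, which overlaps *Cdc20*, had a log2 difference of -0.21 at day 6 (adjusted p = 0.187), and *Mettl15*, which overlaps *Kif18a*, one of 0.21 (adjusted p = 0.587). Values of the other overlapping genes are not given here.

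Other genes of the same machinery were taken from lists that hold none of the 35. Their counts stand beside shares of all genes tested of 20.9% that fell and 13.8% that rose in siNcor1, and of 30.5% and 22.2% in the libraries labelled siOct4. The shares at day 6 were 12.1% higher and 18.6% lower, and in the interaction 7.77% higher and 12.9% lower. Of 26 other spindle and cytokinesis genes, 20 fell and 0 rose in siNcor1, 11 fell and 5 rose in the libraries labelled siOct4, and 10 were higher and 0 lower at day 6 in the latter. *Ckap2l* fell most in both (log2 -1.37 and -1.19), followed in siNcor1 by *Kif14* (-1.25), *Depdc1a* rose in the libraries labelled siOct4 (1.08), and at day 6 *Kif18b* (0.88) and *Depdc1b* (0.82) differed most. Of 25 other kinetochore and checkpoint genes, 9 fell and 2 rose in siNcor1, 2 fell and 8 rose in the libraries labelled siOct4, and 9 were higher and 0 lower at day 6. *Kntc1* fell (-1.14) and *Cenpw* rose (0.91) in siNcor1, *Cenpw* (2.03) and *Cenpk* (1.38) rose in the libraries labelled siOct4, and *Cenpu* (1.09) and *Cenpw* (0.84) were higher at day 6. Among 13 condensin and segregation genes, 7 fell and 1 rose in siNcor1, 3 fell and 2 rose in the libraries labelled siOct4, and 8 were higher and 0 lower at day 6. Between the days in the libraries labelled siOct4, 38.5% of the condensin and segregation genes and 40% of the kinetochore and checkpoint genes passed, below the 52.7% of all genes tested. *Pttg1*, securin, rose in both (1.50 and 1.45), *Smc4* fell in siNcor1 (-1.25), *Ncapg2* fell in the libraries labelled siOct4 (-0.53), and *Espl1*, separase, and *Ncapd3* were higher at day 6 (0.71 and 0.63). Of 12 mitotic entry regulators, 4 fell and 1 rose in siNcor1, 0 fell and 2 rose in the libraries labelled siOct4, and 3 were higher and 1 lower at day 6. In the libraries labelled siOct4, the 16.7% of entry regulators past the threshold was below the 52.7% of all genes tested. *Cks2* rose in both (0.78 and 1.39), *Bora* fell in siNcor1 (-0.76), *Cks1b* rose in the libraries labelled siOct4 (0.54), and *Pkmyt1* (0.89) and *Cdc25a* (0.64) were higher at day 6. Of 17 APC/C genes, 4 fell and 2 rose in siNcor1, 4 fell and 5 rose in the libraries labelled siOct4, and 1, *Ube2s* (0.61), was higher at day 6. The shares of APC/C genes past the threshold between the days, 35.3% and 52.9%, were close to the 34.8% and 52.7% of all genes tested. *Anapc1* (-0.94 and -0.98) and *Cdc27* (-0.69 and -0.94) fell in both. In the interaction 7 of the spindle, 6 of the kinetochore and 5 of the condensin genes had a higher value in the libraries labelled siOct4, 0 of the entry and APC/C genes were, and 0 of the 5 lists' genes were lower. The highest were *Cenpu* (1.30), *Cenpw* (1.12), *Kif18b* (1.04) and *Kif15* (1.00), and among condensin genes *Smc4* and *Ncaph* (both 0.76). At day 3 no gene of these lists passed the threshold between the knockdowns.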

How the data were processed

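RNA was sequenced after ribosomal RNA depletion from 200 ng of total RNA. Alignment by the authors was to mm10, STAR 2.5.2b and edgeR 3.20.9 being named in the submitters' processing notes. The deposited values are log2-cpm per gene. The counting tool and annotation were not given in the sources used here. Each value was turned back into reads (100% whole within 0.1 of a read), which gave the depth. Intervals rest on 1 spread per gene, pooled over the 4 groups of 2 biological replicates and moderated across genes, and cover no other variation. The replicates labelled siOct4 at day 6 differed more than those of the other groups. Their chi-square per degree of freedom was 18.7, against 8.44 to 9.43, which the pooled spread does not show.

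Genes reaching 1 CPM on average were fitted with limma 3.58.1 (R 4.3.3; lmFit, eBayes with trend) over the 4 groups of 2, with contrasts between knockdowns, days and their interaction and Benjamini-Hochberg adjustment over 13866 genes at 0.05. DESeq2, used by the authors, was not run, and voom on the recovered reads was the alternative that starts from counts. The fit was also run on simulated counts with a single fixed dispersion, a check of the code that does not measure error rates in these libraries.

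The 35 genes, the lists and the tests were chosen with earlier results of these data known. Values in every library are given for 10 genes covering the roles and, in each contrast, for the 3 genes that rose and the 3 that fell most among those past the threshold. With none, the 2 most distant are given. From each list the 2 genes with the largest change past the threshold are named per contrast. *Elovl1* and *Mettl15* were chosen after their values were seen. Promoters are RefSeq GRCm38.p6, and exon lengths GENCODE M21. Alternatives covered scaling, filter, pseudocount, variance trend, replicate block, groups in the fit, voom and leaving out each library.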

Additional observations from a re-analysis of the deposited data

Results flagged for a closer look

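The change from day 3 to day 6 differed between the knockdowns for 10 of the 35 genes by the interaction term (limma, adjusted p under 0.05), each higher in the libraries labelled siOct4. The log2 differences were 0.89 for *Bub1*, 0.86 for *Aurka*, 0.85 for *Ndc80*, 0.81 for *Bub1b*, 0.75 for *Aurkb*, 0.74 for *Birc5*, 0.73 for *Cdc20*, 0.64 for *Ccna2*, 0.63 for *Ube2c* and 0.62 for *Cenpa*. The 95% intervals were widest for *Ndc80* (0.27 to 1.44) and narrowest for *Cdc20* (0.35 to 1.11). All but *Ube2c* and *Cenpa* fell in siNcor1 and did not pass in the libraries labelled siOct4, and these 2 genes rose in the latter and did not pass in siNcor1.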

How the results depend on the processing

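With 2 replicates a group, which limit the precision more than depth does, several counts changed when a single library was left out. The number of all genes tested that passed changed as well in these fits. The count of genes higher in the interaction (10) was 5 with totals without normalization factors, 6 with no filter, 0 with no trend and 0 to 17 when 1 library was left out. The count higher at day 6 (13) was 7 with no trend and 1 to 19 with a library left out, and that of genes that rose in the libraries labelled siOct4 (6) was 3 to 9. The median day change there (-0.13) was 0.038 with quantile normalization and -0.29 to -0.053 with a library left out. The medians ranged likewise from -0.26 to 0.030 at day 3, 0.24 to 0.52 at day 6 and 0.34 to 0.65 in the interaction. Totals without *Gm26917* moved the median of all genes by 0.13 in the day change of the libraries labelled siOct4, and the median of the 35 genes moved to 0.00. *Ccnb1* at day 6 (0.20, not past the threshold) was -0.027 without R2 of the libraries labelled siOct4 and 0.42 without R1. The calls lower in siNcor1 (25) stayed at 18 to 26 in all 20 alternatives run. Voom on the recovered reads gave counts of 0, 13, 25, 20 and 10.

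No label ties a replicate number to a batch or animal. Deviations of same-numbered libraries correlated from -0.04 to 0.28 between groups over all genes and from -0.12 to 0.66 over the 35, highest between the day 6 groups in both. With the replicate block, 0 genes passed at day 3, 17 at day 6, 25 in siNcor1, 20 in the libraries labelled siOct4 and 13 in the interaction, against 0, 13, 25, 20 and 10 without it. The calls gained were *Cdk1* (adjusted p = 0.0369), *Cenpe* (0.032), *Hmmr* (0.0485) and *Nek2* (0.0455) at day 6, and *Cenpe* (0.0296), *Hmmr* (0.0369) and *Ttk* (0.0314) in the interaction, and none was lost.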

Other observations

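Genes around the G1 to S transition and the inhibitors of cyclin-dependent kinases were counted in the same fit, beside 34.8% of all genes tested past the threshold in siNcor1 (13.8% rose and 20.9% fell), 52.7% in the libraries labelled siOct4 (22.2% and 30.5%), 30.7% at day 6 (12.1% higher and 18.6% lower) and 20.7% in the interaction (7.77% and 12.9%). Of 22 G1/S and S phase genes, 1 rose and 8 fell in siNcor1, with *Rrm2* (log2 -1.13) and *Cdk6* (-1.08) falling most. In the libraries labelled siOct4, 9 rose and 5 fell, with *Gmnn* (1.48), geminin, and *Ccnd2* (-1.18), cyclin D2, the most distant. At day 6, 11 were above siNcor1 in the libraries labelled siOct4 and 2 below, led by *Ccne2* (0.91), cyclin E2, and *Ccnd2* (-0.83). In the interaction 5 were higher and 1 lower, led by *Ccne2* (1.06) and *Pcna* (1.02). In the same order, 40.9%, 63.6%, 59.1% and 27.3% of these genes passed.

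Of 8 inhibitors of cyclin-dependent kinases, 4 rose and 1 fell in siNcor1, led by *Cdkn1c* (1.97) and *Cdkn2a* (1.00). In the libraries labelled siOct4 1 rose, *Cdkn2a* (1.20), and 1 fell, *Cdkn2c* (-0.73). At day 6, 3 were lower in the latter and 0 higher, *Cdkn1c* (-1.91), *Cdkn2b* (-0.75) and *Cdkn1a* (-0.49), and the same 3 were lower in the interaction (-1.68, -0.86 and -0.66). The shares of inhibitors that passed were 62.5% in siNcor1, 25% in the libraries labelled siOct4 and 37.5% both at day 6 and in the interaction. Of 19 E2F, pocket protein and MuvB genes, 10 fell and 0 rose in siNcor1, led by *Rb1* (-1.49) and *E2f7* (-1.23), and 6 fell and 3 rose in the libraries labelled siOct4, led by *Tfdp2* (-1.38) and *E2f2* (0.90). At day 6, 4 were higher and 1 lower in the latter, led by *Mybl2* (1.05) and *Tfdp2* (-0.71), and the interaction was led by the same genes (1.16 and -0.95), with 3 higher and 1 lower. Of these genes, 52.6% passed in siNcor1, 47.4% in the libraries labelled siOct4, 26.3% at day 6 and 21.1% in the interaction. At day 3 no gene of these lists passed the threshold between the knockdowns (1.07% of all genes tested did).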
